A study of Mus musculus with 16 samples.

Results

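The Z-disc is the dense plate that borders each sarcomere, and 10 genes for proteins that build it or sit on titin there were followed in the adult mouse heart. They were taken from the deposited expression table by name, as Actn2, Ttn, Tcap, Myoz2, Nebl, Synpo2l, Xirp1, Xirp2, Lrrc10 and Cmya5, and are 10 of its 16118 genes. All 10 were present and all 10 passed the filter on low values in every comparison. RNA carrying a poly(A) tail was sequenced from atria and ventricles of 8 adult male littermates, giving 4 libraries of each genotype (control and idKO) in each chamber. Every mouse was homozygous for floxed Meis1 and floxed Meis2 (Meis1flox/flox and Meis2flox/flox). The 4 idKO mice also carried 1 copy of the alpha-MHC-MerCreMer transgene (tg/wt), a Cre recombinase that tamoxifen activates and that a cardiomyocyte promoter drives. The 4 control mice were wt/wt for that transgene, so any effect of the transgene itself is part of each idKO difference. Hearts were collected 2 weeks after tamoxifen. Each mouse gave 1 atrial and 1 ventricular library, so the spread within a group is between animals.

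In the Z-disc, antiparallel actin filaments from neighbouring sarcomeres are cross-linked by α-actinin, and the ends of titin, the giant elastic protein that runs on to the M-band, are anchored there by telethonin. Smaller adaptor proteins tie this lattice to calcineurin signalling, to desmin filaments, to the membrane junctions where calcium is released and to the intercalated disc that joins cardiomyocytes. MEIS1 and MEIS2 are homeodomain transcription factors of the TALE class, and the study compared idKO mice, bred so that both genes can be deleted, with controls in each chamber.

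Values are normalised counts-per-million (CPM) over the effective library size that the authors used, given as mean ± SD over 4 libraries, and gene positions are on GRCm38. A gene was called higher or lower when limma, fitted across all genes tested, gave a Benjamini-Hochberg adjusted p under 0.05. Fold changes are on the log2(value + 1) scale with their standard error (SE).

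Promoter sequence is shown for the member with the largest genotype difference (Lrrc10), for a called member in which none of the motifs searched was found (Cmya5) and for titin (Ttn), whose RNA was not called. Each run is the 250 bases before the start given by RefSeq on GRCm38.p6, written 5′ to 3′ on the strand of the gene. Lrrc10 lies at chr10:117045091-117045340 on the plus strand, Cmya5 at chr13:93144725-93144974 on the minus strand, and Ttn at chr2:76982548-76982797 on the minus strand. Capitals mark a match, on either strand, to 1 of 5 motifs. The core that MEIS proteins recognise was searched as TGACAG. It reads as CTGTCA where it lies on the opposite strand. The core of the TATA box was searched as TATAAA. The letters searched for GATA factors were GATAAG. The CArG box of SRF and the MEF2 site are given by name, and matches to different motifs did not overlap in these runs.
Lrrc10: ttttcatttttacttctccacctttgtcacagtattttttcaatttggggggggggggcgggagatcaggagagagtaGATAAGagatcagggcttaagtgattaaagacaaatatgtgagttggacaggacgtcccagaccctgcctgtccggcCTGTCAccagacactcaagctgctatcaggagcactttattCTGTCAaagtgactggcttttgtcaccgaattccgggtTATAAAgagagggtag
Cmya5: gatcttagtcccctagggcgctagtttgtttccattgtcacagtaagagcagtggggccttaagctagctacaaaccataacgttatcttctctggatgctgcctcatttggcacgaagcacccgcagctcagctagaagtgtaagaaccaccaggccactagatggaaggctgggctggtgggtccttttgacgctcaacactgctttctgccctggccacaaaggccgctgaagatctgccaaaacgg
Ttn: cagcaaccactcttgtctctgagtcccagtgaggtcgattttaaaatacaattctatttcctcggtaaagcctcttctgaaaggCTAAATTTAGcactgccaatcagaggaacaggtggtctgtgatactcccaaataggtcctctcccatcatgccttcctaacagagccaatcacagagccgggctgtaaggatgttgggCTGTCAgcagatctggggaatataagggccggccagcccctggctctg

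The Lrrc10 run held 2 MEIS cores, with first bases at -95 and -54 counted from the start site. It also held GATAAG from -172 and TATAAA from -16. Cmya5 had no match to any of the 5 motifs. Ttn held 1 MEIS core from -48 and a MEF2 site from -166. Among 32817 distinct promoter runs of this length, 15.9% held at least 1 MEIS core, 12.4% the TATA box core, 6.55% the GATA form, 1.47% a CArG box and 2.92% a MEF2 site. The RefSeq table held a promoter for 8 of the 10 members. A MEF2 site was also present in the runs of Myoz2, Xirp2 and Synpo2l. The Actn2 run held none of the 5 motifs. For Nebl the table listed 4 starts, of which the nearest to the longest annotated coding transcript lay 1924 bases away, and none is printed. None of those 4 runs held a MEIS core, and the nearest held a CArG box. A match is a run of letters and not a measured binding site.

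Depth was similar in all groups, with 13.1 to 21.8 M (mega) reads in genes per library, and the least covered member value, Lrrc10 in a control atrium, rested on 1201 reads. Meis2 RNA in ventricles was 26.8 ± 4.25 in controls and 8.83 ± 0.849 in idKO mice (33.0% of control), and in atria the idKO level was 88.8% of control. Meis1 RNA in idKO libraries was 84.5% of control in ventricles and 105% in atria. Reads counted under Esr1, the gene whose ligand-binding domain is part of MerCreMer, averaged 3099 in idKO ventricles and 186.1 in idKO atria, against 0.967 and 5.02 in controls. All 10 cardiomyocyte markers examined were detected in both chambers, and their summed level in idKO ventricles was 95.5% of control (range 101100 to 115100 against 113000 to 119800, exact permutation p = 0.229). Taken singly in ventricles, 7 of the 10 had a negative log2 fold change (median over the 10 -0.07) and 0 were called. For 3 of them (Pln, Tpm1 and Tnni3) every idKO ventricle lay below every control, where 8.99% of all genes tested did not overlap. Markers of skeletal muscle, which shares several Z-disc genes with heart (8 of 11 listed were in the table), summed to 5.06 in control and 3.94 in idKO ventricles, and to 40.9 and 36.4 in atria. In bulk tissue, fewer cardiomyocytes and less RNA per cardiomyocyte cannot be told apart.

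In ventricles, RNA of Lrrc10, Nebl and Cmya5 fell in idKO mice. No member passed the threshold in the other direction, and Xirp2 came nearest to it, with 121% of the control level and all 4 idKO libraries above every control. Lrrc10 went to 48.6% of the control level, Cmya5 to 68.2% and Nebl to 68.1%. The RNAs of the cross-linker Actn2 (94.4% of control), of titin (Ttn, 97.5%) and of its cap Tcap (103%) were not called. Of the 10 members, 3 were called lower and 0 higher, where 2.03% of the 13144 genes tested were called in either direction (70 higher, 197 lower). The members were chosen with earlier results of these data known, so this count is not an independent test of Z-disc genes. With all libraries rescaled to the same total that split was 154 higher and 108 lower, and with equal summed cardiomyocyte markers 76 and 111, while the 3 members stayed called lower in both. The median log2 fold change was -0.08 over the members and -0.01 over all genes tested. Libraries of the 2 genotypes did not overlap for 4 members (3 below, 1 above), against 8.99% of all genes tested.

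**Figure D1:**
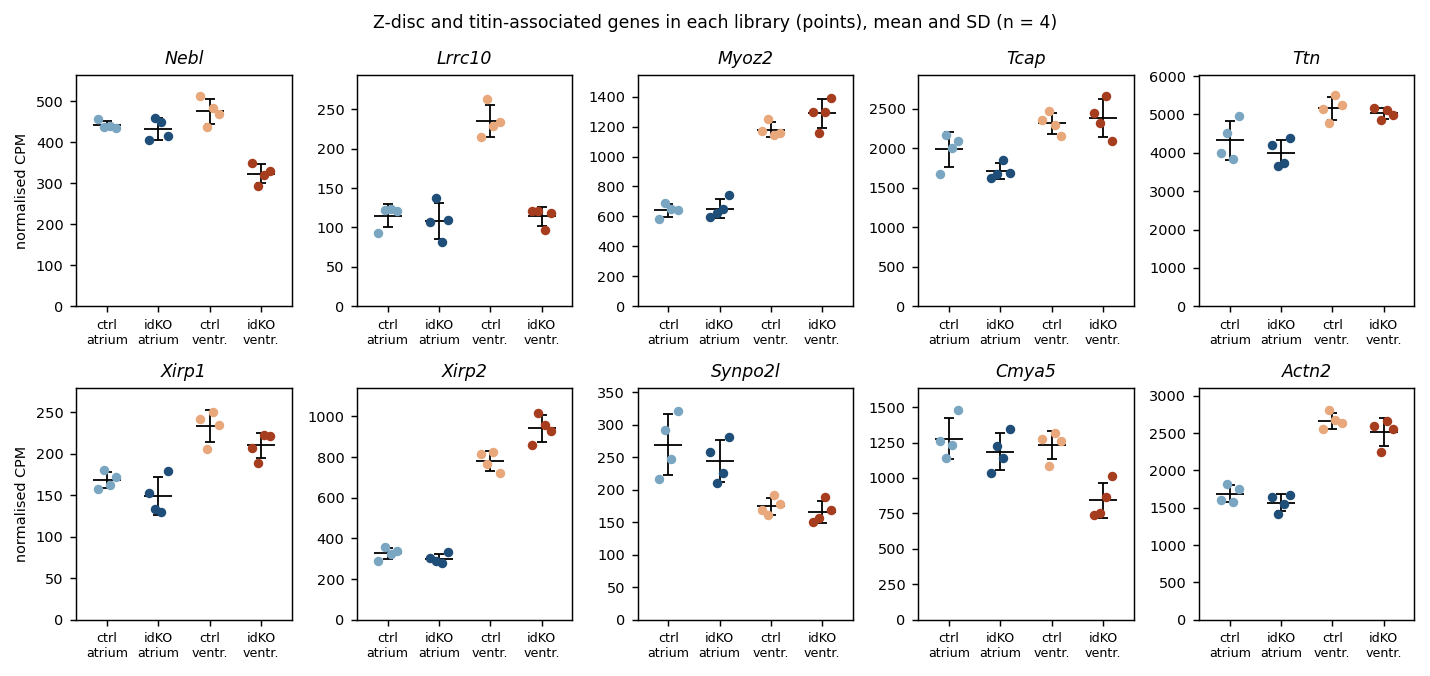
Normalised CPM of each member (vertical axes, linear from 0) in the atria and ventricles of control and idKO mice; points are the 4 libraries, the long line the mean and the bars the SD. Lrrc10, Nebl and Cmya5 in idKO ventricles lie below all 4 control ventricles, and Xirp2 in idKO ventricles lies above them.

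Lrrc10 (chromosome 10, 117045341 to 117046768, plus strand, a single exon) encodes a leucine-rich repeat protein of cardiomyocytes that binds α-actinin and actin. Its level in the 4 control ventricles was 214.6, 263.0, 229.2 and 233.7. In the 4 idKO ventricles it was 121.3, 121.1, 96.56 and 118.2. Every idKO ventricle lay far below the lowest control, and 3 of the 4 sat between 118.2 and 121.3. The means were 235.1 ± 20.3 and 114.3 ± 11.9, a log2 fold change of -1.04 ± 0.08 (SE; limma adjusted p = 1.96e-05), which was the 9th smallest p of all genes tested.

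Nebl (chromosome 2, 17343909 to 17731464, minus strand) encodes nebulette, the cardiac nebulin relative that binds actin and tropomyosin at the Z-disc. Control ventricles measured 512.8, 438.8, 483.1 and 469.1. The idKO ventricles measured 350.9, 294.1, 320.7 and 330.2. All 4 idKO values were below the lowest control by a margin wider than either group's SD. The means were 476.0 ± 30.7 and 324.0 ± 23.6, with a log2 fold change of -0.55 ± 0.07 (SE; limma adjusted p = 6.49e-04). The gene has 7 annotated coding transcripts, among them a shorter LIM-domain form found outside striated muscle, and the table gives their sum.

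Cmya5 (chromosome 13, 93040713 to 93144724, minus strand) encodes myospryn, a large protein that binds α-actinin, desmin and protein kinase A at the Z-disc and the junctions between sarcoplasmic reticulum and T-tubules. In control ventricles it was 1274, 1087, 1314 and 1259. In idKO ventricles it was 737.6, 754.3, 864.1 and 1011. The highest idKO library came close to the lowest control without reaching it, and the spread among idKO mice was wide. The means were 1234 ± 100.5 and 841.7 ± 125.9, with a log2 fold change of -0.56 ± 0.10 (SE; limma adjusted p = 0.00823), and the call was lost without a trended prior (adjusted p = 0.0801).

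Xirp2 (chromosome 2, 67446002 to 67526614, plus strand) encodes a Xin-repeat protein that binds actin and α-actinin at Z-discs and intercalated discs. Its control ventricles measured 814.6, 764.7, 826.2 and 719.6. Its idKO ventricles measured 860.1, 1019, 959.8 and 927.2. All 4 idKO libraries were above the highest control, the reverse of the 3 called members. The log2 fold change was 0.27 ± 0.07 (SE; limma adjusted p = 0.0595), which did not pass the threshold. It passed in 3 of 20 alternatives, namely with all libraries rescaled to the same total (0.37, adjusted p = 0.0214), with DESeq2 on recovered reads (0.285, adjusted p = 0.00334) and without idKO replicate 1 (0.31, adjusted p = 0.0424 in limma).

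The remaining members overlapped between genotypes in ventricles. Actn2, α-actinin 2, the cross-linker of the lattice (chromosome 13, 12269426 to 12340760), was 2664 ± 107.1 in control and 2514 ± 182.0 in idKO ventricles, with 95% limits of -0.23 and 0.06 on its log2 fold change. Ttn (chromosome 2, 76703980 to 76982547, with 347 exons in its longest coding transcript) was 5161 ± 299.6 and 5032 ± 143.3, with limits of -0.18 and 0.11. Neither interval reaches the log2 fold change of -0.55 seen in Nebl.

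Tcap, telethonin, which caps a pair of titin ends at the Z-disc (chromosome 11, 98383811 to 98384953), was 2318 ± 131.4 in control and 2381 ± 237.6 in idKO ventricles. Myoz2, calsarcin-1, which tethers calcineurin to α-actinin (chromosome 3, 123006206 to 123035015), was 1180 ± 49.5 and 1288 ± 95.5, and 3 of the 4 idKO libraries lay above every control. Xirp1, the Xin protein of the intercalated disc (chromosome 9, 120013755 to 120023598), was 233.1 ± 19.5 and 210.0 ± 15.6. Synpo2l, an actin- and α-actinin-binding protein of the Z-disc (chromosome 14, 20658946 to 20668354), was 174.5 ± 13.4 and 165.8 ± 17.0. None of these 4 was called, with limma adjusted p of 0.377 or more, and their log2 fold changes ran from -0.15 (Xirp1) to 0.12 (Myoz2). Myoz2 was called higher only when all libraries were rescaled to the same total (log2 fold change 0.23, limma adjusted p = 0.0214).

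In atria, no member was called. Meis2 RNA in idKO atria was 88.8% and Meis1 RNA 105% of control, and how far the 2 genes were deleted there was not tested. The table held 14523 genes that passed the filter there, of which 0.0207% (3 genes) were called by limma at the adjusted threshold and 670 had an unadjusted p under 0.05. DESeq2 and edgeR on recovered reads likewise called 0 members. Of the 10 members, 1 had an unadjusted p under 0.05: Tcap, at 1986 ± 221.6 in control and 1709 ± 100.4 in idKO atria (log2 fold change -0.21 ± 0.09 SE, limma adjusted p = 0.966). Control and idKO libraries overlapped for all 10, where 2.82% of all genes tested did not overlap. The members' fold changes were negative for 9 and positive for 1 (Myoz2), with a median of -0.11 against 0 over all genes tested. In the same comparison 8 of 10 cardiomyocyte markers had a negative fold change, and all 10 endothelial (median 0.16) and all 10 fibroblast markers (median 0.22) a positive one, with 0 called. Summed endothelial markers in idKO atria were 112% of control (exact permutation p = 0.0571, adjusted p = 0.4 over 14 tests), fibroblast markers 111% (exact permutation p = 0.429) and cardiomyocyte markers 94.9% (exact permutation p = 0.286). Their part in the members' atrial values was not tested.

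Lrrc10 in control atria was 92.89, 122.3, 123.2 and 121.1. In idKO atria it was 106.5, 137.0, 81.5 and 109.0. The idKO values spanned the whole control range. Nebl averaged 442.7 ± 9.81 in control and 432.4 ± 26.6 in idKO atria, and Cmya5 averaged 1278 ± 141.6 and 1186 ± 130.9. The 95% limits of the atrial log2 fold change were -0.40 and 0.20 for Lrrc10, -0.16 and 0.09 for Nebl and -0.32 and 0.10 for Cmya5, so none of the 3 intervals reaches that gene's ventricular fold change.

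**Figure D2:**
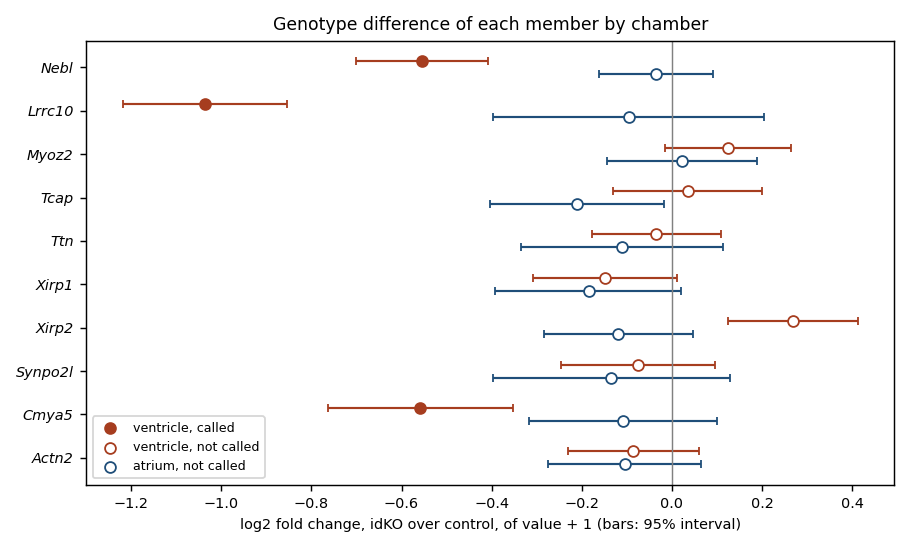
Log2 fold change of each member, idKO over control (horizontal axis, of value + 1), with 95% intervals, in ventricles (red) and atria (blue); filled points were called by limma. Nebl, Lrrc10 and Cmya5 are the 3 filled points, all in ventricles, and the ventricular Xirp2 interval lies right of 0.

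The difference between chambers was tested as an interaction over all 16 libraries, subtracting the ventricular log2 fold change from the atrial one. Meis2 RNA in idKO mice was 33.0% of control in ventricles and 88.8% in atria, and the part of unequal deletion in this difference was not tested. Nebl and Lrrc10 were called, 2 of 10 members, where 0.296% of the 14871 genes tested were called (40 positive, 4 negative). The choice of members was again made with earlier results known. With the mouse as a random effect 54 genes were positive and 17 negative, and with the mouse as a fixed effect 79 and 23. For Nebl the difference was 0.52 ± 0.09 on the log2 scale (SE; limma adjusted p = 0.00821), and for Lrrc10 it was 0.94 ± 0.18 (SE; limma adjusted p = 0.0237). Both differences kept their sign in all 20 alternatives, but the Nebl call held in 13 and the Lrrc10 call in 11. Leaving out 1 mouse ended the Nebl call for 4 of the 8 mice (control replicates 3 and 4, idKO replicates 2 and 3), with limma adjusted p from 0.052 to 0.0701. It ended the Lrrc10 call for 7 of the 8 (all but idKO replicate 3), with limma adjusted p from 0.0535 to 0.0981. For Cmya5 the difference was 0.45 ± 0.15 (SE; limma adjusted p = 0.441), and it was called with the mouse as a fixed block (adjusted p = 0.013). For Xirp2 it was -0.39 ± 0.10 (SE; limma adjusted p = 0.218), and DESeq2 called it (-0.40, adjusted p = 0.0416).

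Ratios within a library do not depend on how libraries are scaled, and they were taken against Actn2, the structural core of the lattice. Nebl was 17.9% ± 1.83 of Actn2 in control ventricles (lowest 15.64) and 12.9% ± 0.602 in idKO ventricles (highest 13.49). Lrrc10 was 8.81% ± 0.418 of Actn2 in control and 4.58% ± 0.719 in idKO ventricles, again without overlap. For Cmya5 the ratio was 46.4% in control and 33.5% in idKO ventricles, and the groups overlapped. Xirp2 lay on the other side, at 29.4% ± 2.44 of Actn2 in control and 37.7% ± 5.27 in idKO ventricles. Myoz2 was 44.3% ± 1.28 and 51.3% ± 2.53, and for both genes every idKO ventricle was above every control. Undivided, the Myoz2 values of the genotypes overlapped, and Actn2 itself stood at 94.4% of control in idKO ventricles. The share of all genes whose ratio to Actn2 does not overlap was not computed, so these separations have no background beside them. These ratios are given without a test. In atria the ratios of all 9 members overlapped between genotypes. A ratio shows unequal change of a pair of genes and not which of them moved.

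**Figure D3:**
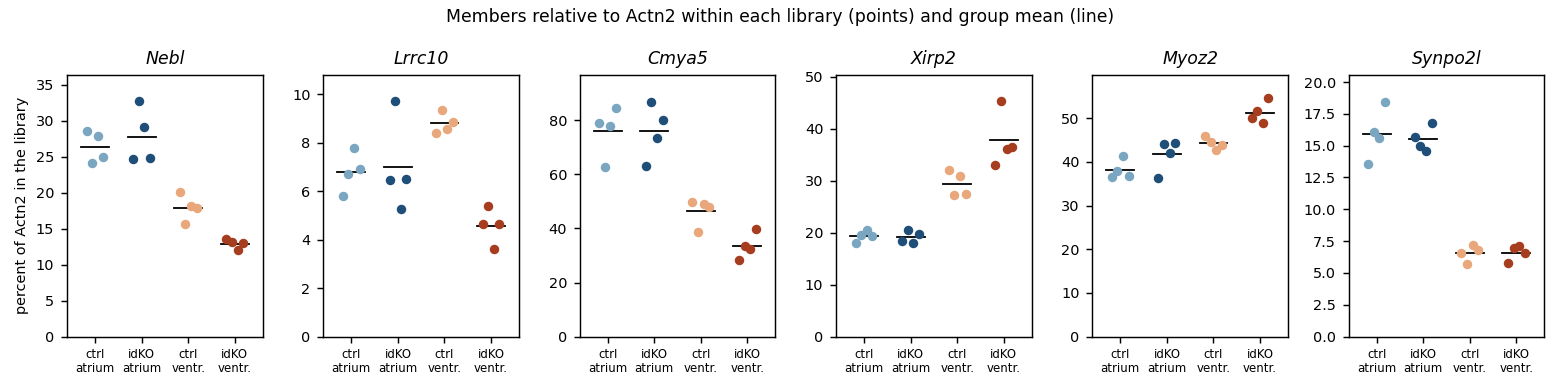
Level of 6 members as a percent of Actn2 in the same library (vertical axes from 0), in the atria and ventricles of control and idKO mice; points are libraries and lines are group means. In idKO ventricles Nebl and Lrrc10 lie below all controls, Xirp2 and Myoz2 above them, and Synpo2l stands higher in both atrial groups (15.9% in control atria) than in ventricles (6.56% in controls).

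Most members also differed between the chambers of control hearts, a comparison that shares its libraries with the genotype comparisons above. By the authors' scaling, limma called 7 members higher in ventricles and 1 higher in atria. The background was dense: 56.9% of the 14871 genes tested were called, 28.7% higher in ventricles and 28.2% higher in atria. Markers of cell types differed with the chamber too: by the same scaling, limma called 9 of 10 cardiomyocyte and 5 of 5 erythroid markers higher in ventricles, and 10 of 10 fibroblast and 5 of 5 tested skeletal muscle markers lower. Control ventricles held 75.3 times the control atrial mean of Myl3, a cardiomyocyte marker, 4.51 times that of Pln and 3.39 times that of Ckm. That list is therefore not a neutral measure of cardiomyocyte content between chambers. The part of cell types in the members' chamber differences was not tested. The 1 member higher in atria was Synpo2l, at 217.0, 292.4, 246.8 and 321.6 in control atria and 168.1, 160.3, 191.4 and 178.2 in control ventricles. Each atrial library was above each ventricular one (log2 fold change -0.61 ± 0.11 SE, limma adjusted p = 0.00011).

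Xirp2 differed most toward ventricles, at 288.7, 356.4, 323.7 and 336.4 in control atria and about 2.39 times as much in control ventricles (log2 fold change 1.26 ± 0.07 SE, limma adjusted p = 4e-11). Lrrc10 followed at 1.03 ± 0.13 (SE), Myoz2 at 0.88 ± 0.07 and Actn2 at 0.66 ± 0.07. Xirp1 at 0.47, Ttn at 0.26 and Tcap at 0.23 were smaller. The Tcap call was lost with edgeR on recovered reads (0.18, adjusted p = 0.0865) and, in limma, without control replicate 1 (adjusted p = 0.195) or 3 (0.0695), and the Ttn call without control replicate 1 (0.0694) or 3 (0.142). Nebl (0.10 ± 0.06 SE) and Cmya5 (-0.05 ± 0.10 SE) were not called by the authors' scaling.

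These chamber values depend on the scaling. The effective library size divided by the reads in genes averaged 0.947 in control atria and 0.639 in control ventricles, so the authors' scaling raises ventricular values relative to a plain share of reads. With all libraries brought to the same total, the median log2 fold change of all genes moved from -0.02 to -0.51. Then 3 members were called higher in ventricles and 5 lower, against 1388 higher and 9879 lower of the 14871 genes tested. With libraries scaled to equal summed cardiomyocyte markers, the median moved to -0.78, with 1 member called higher and 7 lower. Over all genes tested, 748 were then called higher and 11826 lower. That marker list holds genes that themselves differ by chamber, such as Myl3. Xirp2 (higher in ventricles) and Synpo2l (lower) were called in the same direction in all 16 alternatives. The direction of Nebl, Tcap, Ttn and Xirp1 flipped under both of those scalings, and that of Actn2 with equal cardiomyocyte markers. Nebl and Cmya5, not called by the authors' scaling, were called lower under both. With equal cardiomyocyte markers the calls of Lrrc10 (0.18, limma adjusted p = 0.198) and Myoz2 (0.02, limma adjusted p = 0.728) were lost. The Actn2 call was lost at the same total (0.09, limma adjusted p = 0.144).

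**Figure D4:**
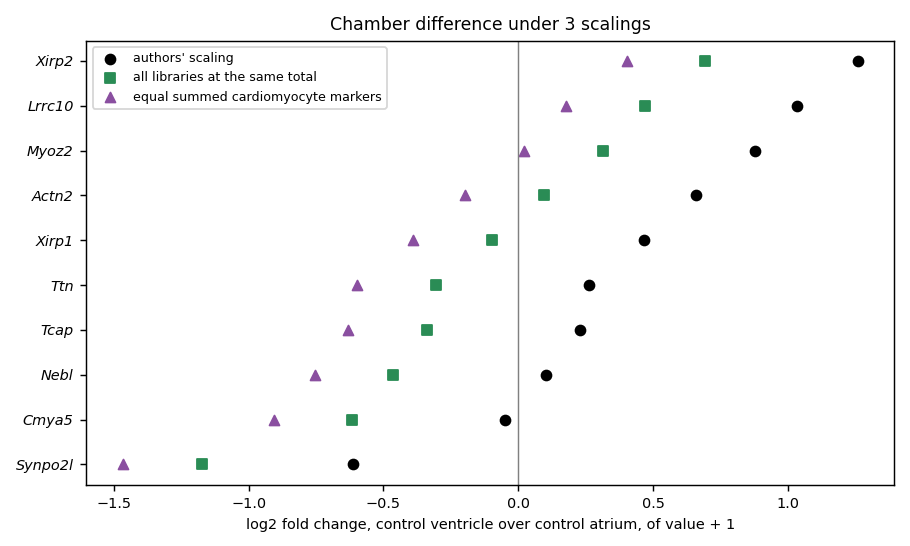
Log2 fold change of each member, control ventricle over control atrium (horizontal axis, of value + 1), by the authors' scaling (circles), with libraries at the same total (squares) and with equal summed cardiomyocyte markers (triangles). The 3 scalings shift all members together, so that Xirp2 stays right of 0 and Synpo2l left of it while Nebl, Tcap, Ttn and Xirp1 change sides. Actn2 changes side only with equal summed cardiomyocyte markers.

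Among idKO hearts, which share no library with the control comparison, 6 members were called higher in ventricles and 3 lower, where 53.8% of genes were called (27.1% higher, 26.8% lower). Nebl (-0.42 ± 0.06 SE on the log2 scale, limma adjusted p = 1.25e-05) and Cmya5 (-0.50 ± 0.10 SE, limma adjusted p = 0.000425) were called on the atrial side. Synpo2l (-0.55 ± 0.11 SE) was called there too, and each of the 3 held in all 16 alternatives. In control hearts Nebl and Cmya5 were called on that side only at the same total and with equal cardiomyocyte markers. Lrrc10 stood at 0.09 ± 0.13 (SE; limma adjusted p = 0.563). Its 4 idKO ventricles (96.56 to 121.3) fell inside the range of the 4 control atria (92.89 to 123.2). With libraries at the same total the contrast for Lrrc10 was -0.385 (limma adjusted p = 0.0102), and with equal cardiomyocyte markers -0.77 (limma adjusted p = 2.02e-05).

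Levels can be compared between genes only per length, and were divided by the kilobases of the longest coding transcript. Doing so takes that annotated form as the one expressed and evenly covered, which was not tested. Where a heart uses a shorter form, of titin for example, the level per kilobase comes out too low. Tcap was highest in each of the 4 groups, at 2445 ± 138.7 normalised CPM per kilobase in control ventricles. Myoz2 (999.1 ± 41.9) and Actn2 (912.5 ± 36.7) came next there, and all of their libraries were in that order. In control atria this pair was reversed in mean (543.4 for Myoz2, 577.7 for Actn2) and overlapped. Per kilobase of coding sequence it was not reversed there (810.4 for Myoz2, 628.9 for Actn2).

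Lrrc10 was the 4th member in control ventricles, at 164.7 ± 14.2 per kilobase, apart from Cmya5 below it (104.1 ± 8.48). In idKO ventricles Lrrc10 (80.03 ± 8.33), Xirp2 (78.75 ± 5.54) and Cmya5 (71.03 ± 10.6) came next to each other, each overlapping its neighbour. Per kilobase of coding sequence Lrrc10 stood at 139.0 there, Xirp2 at 82.94 and Cmya5 at 76.33, with Nebl between Lrrc10 and Xirp2. Nebl was 7th in control ventricles (58.91 ± 3.81) and 9th in idKO ventricles (40.10 ± 2.92), where it overlapped Synpo2l and Xirp1. Titin, whose longest coding transcript spans 106.8 kilobases and 35213 codons, stood at 48.31 ± 2.81 per kilobase in control ventricles. On the other length, per kilobase of coding sequence, Nebl was 5th in control (156.5) and also 5th in idKO ventricles (106.5), 3.04 of the 8.08 kilobases of its longest coding transcript being coding.

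Other genes of the same structures were read in ventricles from lists that do not hold the members. Of 17 other Z-disc genes, 0 were called higher and 1 lower, the palladin gene Palld, a scaffold of actin bundles (341.6 ± 7.49 to 274.7 ± 12.2, or -0.31 ± 0.05 SE on the log2 scale, limma adjusted p = 0.00825). The median over those 17 was -0.03. Fold changes were positive for 7 and negative for 10. Those not called ran from -0.22 for the crystallin gene Cryab to 0.47 for the PDZ-LIM gene Pdlim3 (limma adjusted p = 0.0998).

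Of 14 titin partners along the sarcomere, 1 was called lower and 1 higher. Fhl2, a LIM-domain protein that binds titin's N2B and M-band regions, fell from 2206 ± 176.6 to 792.7 ± 116.1 (-1.48 ± 0.10 SE on the log2 scale, limma adjusted p = 1.83e-06), a larger fall than in any member. Myom2, the M-band protein M-protein, rose from 1635 ± 296.9 to 2388 ± 216.6 (0.56 ± 0.11 SE, limma adjusted p = 0.021). The median over the 14 was -0.13.

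Thin filament capping and assembly factors gave 3 lower and 0 higher of 14, with a median of -0.18 and 12 of 14 fold changes negative. In atria, where none was called, all 14 were negative with a median of -0.10. Hspb7, a small heat shock protein that binds filamin C, fell from 2925 ± 106.0 to 2198 ± 231.5 (-0.42, limma adjusted p = 0.0125). Fhod3, the cardiac formin, fell from 501.6 ± 18.2 to 392.1 ± 33.4 (-0.36, limma adjusted p = 0.0129), and Cap2, an actin monomer-binding cyclase-associated protein, from 219.0 ± 2.72 to 179.2 ± 10.9 (-0.29, limma adjusted p = 0.0199). The tropomodulin gene Tmod1 stood at -0.26 (limma adjusted p = 0.0589).

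Costamere and intermediate filament genes gave 0 calls of 14 in ventricles, with 7 fold changes positive and 7 negative, from -0.35 for the dysbindin gene Dtnbp1 (limma adjusted p = 0.0749) to 0.22 for the dystrobrevin gene Dtna (limma adjusted p = 0.0852). Paralogues of the members gave 0 calls of 6 tested: Actn1 (0.23), Actn4 (0.16), the nebulin gene Neb (0.14), Synpo2 (0.003), Nrap (-0.01) and Synpo (-0.11). Among 12 regulators of titin splicing and sarcomere genes, Tbx20, a T-box factor, rose from 109.3 ± 8.91 to 146.8 ± 13.6 (0.42 ± 0.08 SE, limma adjusted p = 0.0144) and 0 were lower, while the titin splicing factor Rbm20 stood at 0.00. None of the genes on these 6 lists was called in atria. In the interaction, Fhl2 was the only gene on them that was called (1.26 ± 0.17 SE, limma adjusted p = 0.00116).

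The summed markers of other cell types were read beside these results. Of 10 fibroblast markers 9 had a positive fold change and 0 were called, and their sum in idKO ventricles was 122% of control (1189 to 2025 against 1114 to 1351, exact permutation p = 0.171 over 70 assignments). Of 8 macrophage markers 7 had a positive fold change, and their sum was 122% of control in ventricles (382.5 to 469.9 against 342.6 to 349.0, exact permutation p = 0.0286, the smallest 4 against 4 allows, adjusted p = 0.4 over 14 tests), with Lyz2 called higher (0.37, limma adjusted p = 0.0292). The sums of endothelial, smooth muscle and pericyte, and erythroid markers were 103%, 98.6% and 82.5% of control, and none of these lists had a marker at 0 reads in all ventricles. The part of other cell types in the members' differences was not tested.

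Across the 16 libraries, the patterns most like those of the 3 called members were found by the root mean square difference in log2(value + 1), each gene centred on its mean, among 11074 candidate genes. The nearest to Nebl were Ctnna1, the gene of α-catenin (0.11), and Ryr2, the channel that releases stored calcium (0.13), followed by Clip4, Med25 and Ibtk, against a median of 0.33 over all candidates. Ctnna1 in idKO ventricles was 69.0% and Ryr2 63.4% of control. Falls near that of Nebl follow from the pick, which used the same libraries. Nearest to Cmya5 were Pde4a (0.14), Cap2 (0.14), Ctnna1 (0.14), Gramd4 (0.15) and Mre11a (0.15). No gene came as near to Lrrc10: the closest was Rit1 at 0.24, then Wnk1, Ccbe1, Klhl33 and Rnf157, against a median of 0.53.

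The library kit is not stated to keep strand, and antisense RNAs are annotated across Nebl (Gm13324), Ttn (Gm13938), Xirp2 (Gm13601) and Cmya5 (Gm4814 and A630019I02Rik). None of these had a row in the table, and reads from them cannot be told apart from those of the member. Xirp1 shares its span with Cx3cr1 on the same strand, which averaged 1.64 in control atria and 2.34 in control ventricles. Lrrc10, Actn2, Tcap and Synpo2l overlap no annotated gene.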

How the data were processed

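Reads were trimmed and quantified by the submitters, and cutadapt, RSEM 1.3.1 and the build GRCm38 are named per the submitters' processing notes. No source used here gives the scaling tool or a filter. The deposited values are a normalised signal: whole reads plus 0.5, over an effective library size, as CPM. Whole reads came back for 100% of values within a tolerance of 0.01. Of 206 unnamed identifiers, 202 were named from GENCODE M21.

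Genes with at least 4 libraries of a fit at 1 CPM of the summed values were tested with limma 3.58.1 (R 4.3.3) on log2(value + 1), trended prior, two-sided, with Benjamini-Hochberg adjustment over all genes tested and a threshold of 0.05. Genotypes were compared within each chamber (8 libraries), and chambers and the interaction over all 16. The plan named edgeR for raw counts and limma for normalised values, so limma was used. On recovered reads in ventricles, DESeq2 1.42.0 called 195 genes higher and 342 lower, and edgeR 4.0.16 called 77 and 183. Other alternatives changed the pseudocount, filter, scaling and prior, added the mouse as a block, and left out each library or mouse; scaling to cardiomyocyte markers was chosen after seeing the data.

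The chambers of a mouse are paired by its number in the labels: deviations from group means correlated at 0.177 to 0.302 over 11802 genes, and all 8 atria matched the ventricle of the same mouse best. Replicate libraries differed beyond sampling noise. The test was also run on simulated reads with independent libraries and the same dispersion for every gene. Those settings hold no mouse effect, so that run does not show how the test performs on these libraries. The members, lists and naming rule were chosen with earlier results of these data known. The rule named all members, up to 4 called genes of each list per genotype comparison, and the 5 nearest patterns to each member called in ventricles, passing over predicted names; list genes quoted as not called were chosen after their values were seen.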

Additional observations from a re-analysis of the deposited data

Results flagged for a closer look

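Among 40 member-by-group sets of 4 libraries, 2 held a library far from the other 3, and chance gives about 5% of sets. Both concerned Lrrc10: the lowest control atrium (replicate 1) measured 92.89 where the others ran from 121.1 to 123.2, and the lowest idKO ventricle (replicate 3) measured 96.56 where the others ran from 118.2 to 121.3. The gap took 0.931 and 0.872 of the set's whole range.

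The genotype effect differed between chambers for 2 members. The atrial minus the ventricular log2 fold change was 0.518 for Nebl (limma adjusted p = 0.00821) and 0.941 for Lrrc10 (limma adjusted p = 0.0237).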

How the results depend on the processing

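In ventricles the falls of Lrrc10 and Nebl were called in all 20 alternatives and that of Cmya5 in 19. Members called higher there were 2 with libraries at the same total (154 of all genes tested), 1 with DESeq2 (195 of all) and 0 to 1 with a library left out. In the interaction, members called higher (2 as reported) numbered 0 with libraries at the same total, 1 with equal cardiomyocyte markers, 0 without a trended prior and 0 to 1 with a mouse left out. Over all genes tested the higher calls (40 as reported) numbered 17, 26, 21 and, with a mouse left out, 17 to 30. DESeq2 called 1 member lower, where it called 64 genes higher and 22 lower. In control hearts, members higher in ventricles were 3 (same total) and 1 (cardiomyocyte markers), and lower ones 5 and 7. Of the 14871 genes tested, 1388 and 748 were higher and 9879 and 11826 lower. In idKO hearts, members higher in ventricles were 3 and 1, and lower ones 8 with cardiomyocyte markers. Of all genes tested there, 1546 and 631 were higher and 9254 and 11925 lower. Over all genes, calls in ventricles (70 higher, 197 lower) were 30 and 118 without a filter, 19 and 70 without a trended prior, 195 and 342 with DESeq2, and between 35 and 97 (without control replicate 4) and 103 and 256 (without idKO replicate 4) with a library left out.

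The replicate block (mouse) changed 1 call of a member in the paired fits, Cmya5 in the interaction (0.45 with a fixed mouse effect, adjusted p = 0.013).

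In the genotype comparisons and the interaction, signs reversed only for values that were not called. In ventricles these were Ttn at the same total (0.069) or with cardiomyocyte markers (0.034), and Synpo2l (0.027) and Actn2 (0.018) at the same total; Tcap ran from -0.021 to 0.095 with a library left out and was 0 without control replicate 4. In atria Nebl reversed with cardiomyocyte markers (0.04), and with a library left out Lrrc10 ran from -0.215 to 0.033 and Myoz2 from -0.04 to 0.062. In the interaction, leaving out a mouse gave -0.103 to 0.057 for Xirp1, -0.142 to 0.038 for Synpo2l and -0.05 to 0.015 for Actn2.

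Between control chambers, log2 fold changes at the same total and with cardiomyocyte markers were -0.46 and -0.76 for Nebl, -0.34 and -0.63 for Tcap, -0.31 and -0.60 for Ttn, and -0.10 and -0.39 for Xirp1. Tcap, Ttn and Xirp1 were called higher in ventricles by the authors' scaling, and Nebl was not called. All were called lower under both scalings, except Xirp1 at the same total (limma adjusted p = 0.291). Actn2, also called higher by the authors' scaling, was called lower at -0.20 with cardiomyocyte markers (limma adjusted p = 0.00133). Cmya5 ran from -0.096 to 0.012 with a mouse left out. It was called lower at the same total (-0.615) and with cardiomyocyte markers (-0.907). Between idKO chambers the same scalings gave -0.385 and -0.77 for Lrrc10, -0.007 and -0.39 for Tcap, and -0.14 and -0.53 for Ttn, and cardiomyocyte markers gave -0.36 for Xirp1 and -0.19 for Actn2. By the authors' scaling Tcap, Ttn, Xirp1 and Actn2 were called higher in idKO ventricles than in idKO atria. With cardiomyocyte markers all of them were called lower. Lrrc10, not called by the authors' scaling, was called lower under both. The cause of these reversals was not tested.

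Groups of 4 mice limit precision more than depth does, since each member value rests on at least 1201 reads.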
